A study of Capra hircus with 6 samples.

Results

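CC2D1A is 1 of the 6535 gene symbols represented on a bovine oligonucleotide array that was hybridized with mammary gland RNA of goats. It was selected on its measured ratio between the genotypes, a lower signal under the Low than under the High CSN1S1 genotype, so every Low against High value given for it here is a description and carries no test. The array holds 1 probe for it, Bt00002359, among 8379 probes, and the probe is printed as 2 adjoining spots.

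The RNA came from the lactating mammary gland of 6 goats, 3 with the Low genotype and 3 with the High genotype at CSN1S1, which encodes the milk protein alpha-s1-casein. In the file headers, the names of the scanned images hold FF for Low goats and AA for High goats. All 6 goats had been deprived of food for 48 h, the High goats included, so no fed animal is among the groups. Each of 3 pairs, A, B and C, set 1 Low goat against 1 High goat on 2 arrays with the dyes Cy5 and Cy3 exchanged. Both arrays of a pair held the same RNA, which leaves n = 3 pairs, and the number of pairs limits the precision. On array 1 of each pair the Low goat was in Cy5, and on array 2 it was in Cy3.

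CC2D1A encodes a scaffold protein with coiled-coil regions and a C2 domain, a fold that binds lipids. In human and rat neuronal cells it is known as a repressor that binds DNA elements of the serotonin receptor gene HTR1A and the dopamine receptor gene DRD2, and in human cells as a scaffold that joins the kinases PDK1 and Akt below the EGF receptor. It also binds CHMP4 proteins of the ESCRT-III complex, which cuts membranes at endosomes, and its fly relative, Lgd, acts on the endosomal traffic of Notch. In human cells it takes part in NF-kB signalling and in innate sensing through TBK1, in mouse cells it restrains the phosphodiesterase PDE4D and so affects CREB, and loss of the human gene is linked to intellectual disability.

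In the Low goats the CC2D1A spots were dim against the glass around them, more so in Cy3 than in Cy5. In the High goats they were clearly lit. Net signal, the spot's mean intensity minus the mean of its surroundings, is given here as the mean of the 2 spots. A reading, 1 goat in 1 dye on 1 array, counted as above background when the net signal reached 2 standard deviations (SDs) of the surrounding pixels. By that measure the probe was above background in 1 of 6 readings of Low goats and in all 6 readings of High goats. All 24 spot readings of the probe were free of quality flags.

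Goat by goat, the Low goat of pair A had a net signal of 30.5 in Cy5 and 26.7 in Cy3, against backgrounds of 48.3 and 66.4. The Low goat of pair B had 33.2 in Cy5 and 28.0 in Cy3, against backgrounds of 46.3 and 77.3. The Low goat of pair C had 45.3 in Cy5 and 10.6 in Cy3, against backgrounds of 47.6 and 82.1. The Cy5 reading of pair C was the only Low reading past the limit, at 2.42 background SDs, and the Cy3 reading of the same goat was the lowest of all, at 0.309.

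The High goat of pair A had a net signal of 351 in Cy3 and 326 in Cy5, against backgrounds of 92.9 and 41.4. In pair B the High goat had 241 in Cy3 and 154 in Cy5, against backgrounds of 74.1 and 50.2. In pair C it had 319 in Cy3 and 292 in Cy5, against backgrounds of 86.4 and 50.4. The dimmest High reading, pair B in Cy5, was still 7.95 background SDs above its surroundings, and the brightest in these terms, pair A in Cy5, was 16.7. The 6 Low readings, from 3 goats, spanned 10.6 to 45.3 with a median of 29.3. The 6 High readings, also from 3 goats, spanned 154 to 351 with a median of 306.

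**Figure D1:**
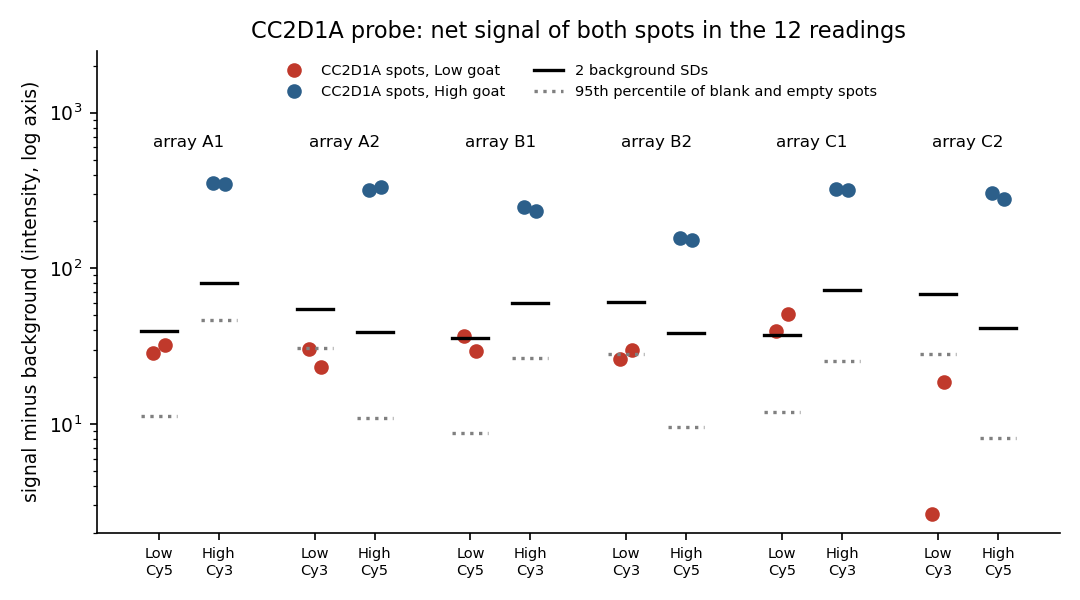
Net signal (intensity, log axis) of both CC2D1A spots in the 12 readings, by array, genotype and dye, with the limit of 2 background SDs (black line) and the 95th percentile of blank and empty spots in the same reading (dotted line). Low spots lie around or under the black line, and High spots lie far above both lines.

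The arrays also hold 2442 spots named blank or empty, which show how bright a spot with no probe could be. The Low readings of CC2D1A were brighter than 60.9% to 99.5% of these control spots, and 3 of 6 passed their 95th percentile. All 3 of those were the Cy5 readings, where the net signal was 30.5 to 45.3 over backgrounds of 46.3 to 48.3. In Cy3, where background was 66.4 to 82.1, 0 of 3 Low readings passed it. The Cy3 net signals of the Low goats were still above the median control spot, with 26.7 against 8.85 in pair A, 28.0 against 8.95 in pair B and 10.6 against 8.16 in pair C, and pair B missed its 95th percentile of 28.1 narrowly. The High readings were brighter than at least 99.96% of the control spots in both dyes.

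The pattern of a probe lit in every High reading and in at most 1 Low reading was shared by 2 of 6733 probes, 0.0297%. The other was a probe of WASHC2A, a subunit of the WASH complex, which promotes actin assembly on endosomes. The reverse pattern, lit in every Low reading and in at most 1 High reading, was found for 0 probes. Another, brighter WASHC2A probe had a log2 ratio of 0.09, so the array's 2 probes of that gene did not give the same picture. CC2D1A has no other probe with which to make that comparison.

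Ratios were computed after normexp background correction with an offset of 50 and a loess curve per array, and they are log2 of Low over High, so a value below 0 means less signal from the Low goat. The CC2D1A ratio was -1.79 on array A1 and -1.56 on array A2. It was -1.64 on B1 and -1.24 on B2. It was -1.60 on C1 and -2.07 on C2. All 6 arrays were below 0, as were 125 of 6733 probes, 1.86%, and so were all 12 spot ratios. Pair C had both the lowest array and the widest gap between spots of 1 array, 0.39 on array C2, against a median gap of 0.098 over the 6 arrays and of 0.077 over all probes.

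Averaged within pairs, the ratio was -1.67 in pair A, -1.44 in pair B and -1.84 in pair C, a mean of -1.65 ± 0.20 (SD, n = 3 pairs). This was the second lowest of the 6733 probes tested, after CSN1S1 and before LAPTM4A, a lysosomal membrane protein, at -1.12 ± 0.29. Over all tested probes the median was 0.0031 and the SD 0.080. CC2D1A stands far outside that spread, as the choice of the gene for this contrast makes it do.

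The mean ratio corresponds to 3.14-fold lower signal in Low goats, but a probe lit in 1 of 6 Low readings gives a bound and not a fold. A level per dye was rebuilt from the spot's mean log2 intensity, scaled across arrays, and its normalized ratio. The levels of both dyes on an array thus differ by exactly that ratio. This normalized log2 level was 7.06, 6.71 and 6.67 in the Low goats (pairs A, B and C in turn), a mean of 6.81 ± 0.21 (SD, n = 3). In the High goats it was 8.73, 8.15 and 8.50, a mean of 8.46 ± 0.29. For the bound, each Low reading was raised at least to the dimmest signal above background on its array. Averaged over the 3 pairs, the CC2D1A signal of Low goats was then at least 2.77-fold lower than that of High goats under this processing. This bound is on the mean and not on each pair, since pair B, at a ratio of -1.44, fell short of it. With a limit of 3 background SDs, 0 of 6 Low readings passed and the bound was 2.53-fold. The bound does not cover other settings, since medians of signal and background in place of means gave a fold of 2.62 from the ratio itself. In tissue RNA, fewer cells that express a gene and less RNA of it per cell cannot be told apart.

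The 6 Low readings of this scaled level ran from 6.43 to 7.15 and the 6 High readings from 7.91 to 8.75, which leaves a gap of 0.76 between the groups. The 2 dyes gave levels 0.19, 0.075 and 0.48 apart for the Low goats of pairs A, B and C, and 0.029, 0.47 and 0.0080 apart for the High goats. Non-overlap in this direction, with every Low reading below every High reading, was seen for 6 of 6733 probes, 0.0891%. Beside CC2D1A and CSN1S1 these included Bt00005040, a probe with no gene symbol, at a log2 ratio of -0.73. RAB11FIP2, an effector of the recycling endosome protein Rab11, was at -0.70 and WASHC2A at -0.55. The last was CYB5R3, a cytochrome b5 reductase, at -0.25, which was lit in only 3 of the 6 Low readings and 4 of the 6 High readings.

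The casein gene that defines the genotypes gave a different kind of reading on the same arrays. Signal over background of CC2D1A was 1.13 to 1.95 in Low goats and 4.06 to 8.86 in High goats. That of CSN1S1, probe Bt00006833, was 32.9 to 103 in Low goats and 92.2 to 554 in High goats, above background in 12 of 12 readings. CC2D1A was thus well lit on 1 side of its ratio and CSN1S1 on both.

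Under the same processing the CC2D1A ratio was closer to 0 than the CSN1S1 ratio on 6 of 6 arrays. CSN1S1 was at -2.63 and -2.52 in pair A, -3.10 and -2.58 in pair B, and -2.57 and -2.88 in pair C, a mean over pairs of -2.71 ± 0.13 (SD, n = 3), or 6.55-fold. The CSN1S1 ratio minus the CC2D1A ratio was -0.90 in pair A, -1.40 in pair B and -0.89 in pair C, a mean of -1.06 ± 0.29, where a value below 0 means the lower ratio for CSN1S1. Pair B stands apart here because its CC2D1A ratio was the nearest to 0 and its CSN1S1 ratio the lowest of the 3.

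**Figure D2:**
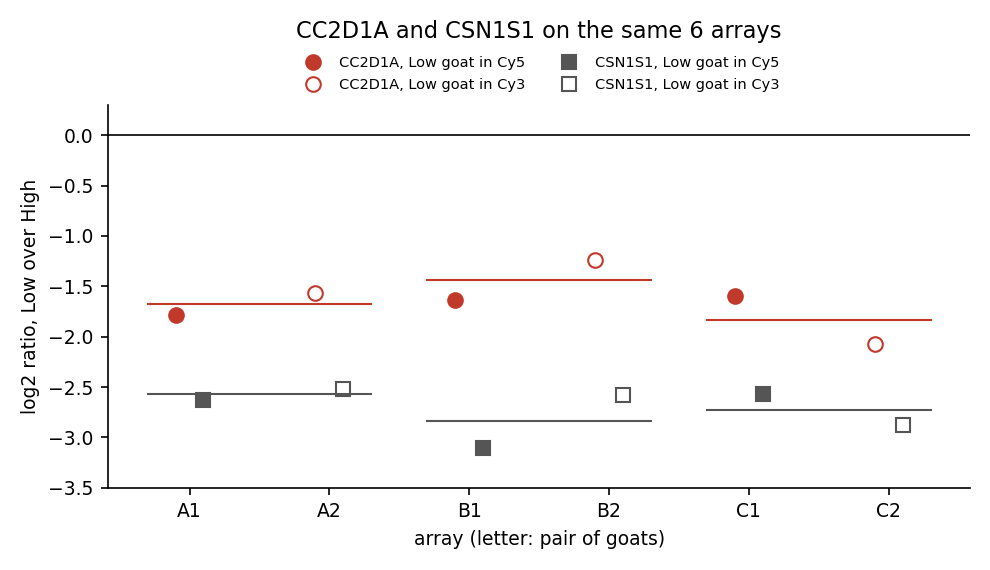
Log2 ratio of Low over High for CC2D1A (circles) and CSN1S1 (squares) on the 6 arrays, filled where the Low goat was in Cy5 and open where it was in Cy3, with lines at the pair means. Both probes are below 0 on all 6 arrays, and CC2D1A lies between -2.07 and -1.24.

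The order of the 2 genes depended on how background was treated. The offset of 50 added to each corrected channel exceeded the net CC2D1A signal in all 6 Low readings and in 0 of the 6 High readings, which draws the CC2D1A ratio toward 0 by construction. With an offset of 10 the ratio was -2.15 ± 0.24. With no background subtracted it was -1.89 ± 0.38, and with the medians of signal and background in place of the means -1.39 ± 0.17 (SD, n = 3 in each). With plain subtraction it was -3.34 ± 0.68, lower than CSN1S1, whose ratio stayed between -2.74 and -2.67 over the 8 settings plotted.

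The net signals themselves show what plain subtraction rests on. High over Low net signal of CC2D1A was 11.5-fold on A1, 12.2-fold on A2, 7.26-fold on B1, 5.48-fold on B2, 7.04-fold on C1 and 27.5-fold on C2. The same quotient for CSN1S1 was 5.81, 6.22, 8.67, 5.86, 5.36 and 8.84. On these values CC2D1A had the larger quotient on 4 of 6 arrays, all in pairs A and C, and the smaller on both arrays of pair B. On C2 the 2 CC2D1A spots gave 116-fold and 15.1-fold, since the Low net signal of the first spot was close to 0. Under plain subtraction the CSN1S1 ratio minus the CC2D1A ratio was 0.60 ± 0.77, with 0.91 in pair A, -0.28 in pair B and 1.16 in pair C. The data thus place CC2D1A lower in Low goats under every treatment of background that was run, without fixing whether its difference exceeds that of CSN1S1.

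**Figure D3:**
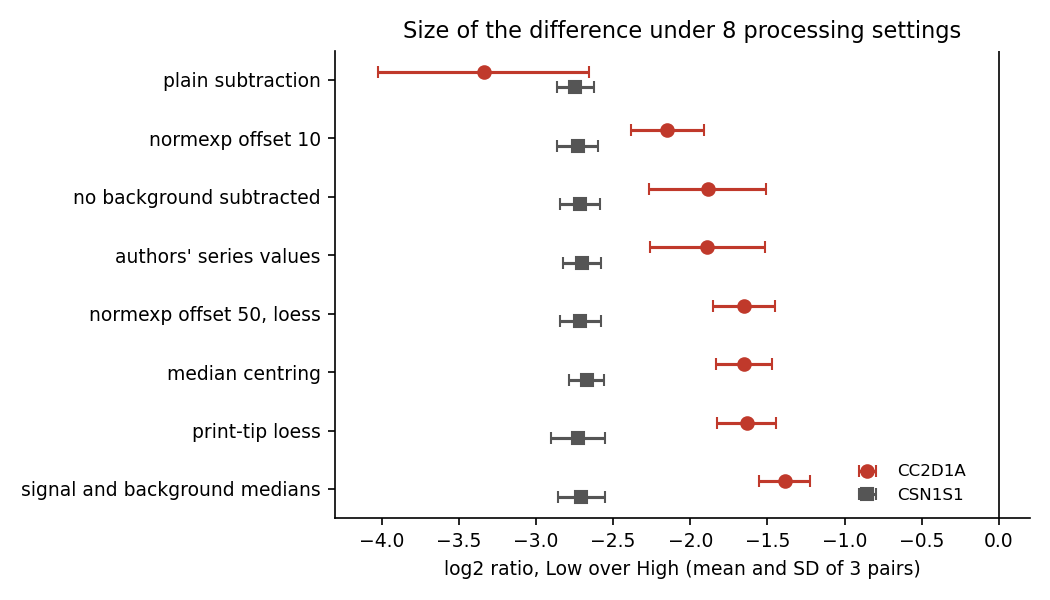
Mean log2 ratio of Low over High (bars, SD of 3 pairs) for CC2D1A (circles) and CSN1S1 (squares) under 8 processing settings. CSN1S1 stays between -2.74 and -2.67, while CC2D1A moves between -3.34 and -1.39.

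The authors' deposited table gives log2 ratios of -2.25 and -2.06 for CC2D1A in pair A, -1.66 and -1.27 in pair B, and -2.13 and -1.98 in pair C. The mean of pairs from these deposited values was -1.89, which is 3.71-fold. These values lay within 0.018 of those computed here with no background subtracted and a loess curve per array. Pair B had the ratio nearest to 0 in the deposited values as well.

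Because each pair was run in both dye orientations, the effect of the dye on the probe can be tested apart from the genotype difference. The mean ratio was -1.67 ± 0.10 (SD) on the 3 arrays that had the Low goat in Cy5 and -1.63 ± 0.42 on the 3 with the Low goat in Cy3, so the spread was wider in the orientation where 0 of 3 Low readings were above background. The dye effect, log2 of Cy5 over Cy3, was -0.11 in pair A, -0.20 in pair B and 0.24 in pair C, a mean of -0.02 with a 95% interval of -0.16 to 0.11 (limma moderated test, adjusted p = 0.788). The values of pairs B and C lay outside that interval. It rests more on a spread pooled over probes than on the probe's own SD of 0.23 over pairs. Dye effects passed the limma test for 2674 of 6733 probes, 39.7%. A mean dye effect larger in size than that of CC2D1A was seen for 85.6% of probes, but pairs of opposite sign offset each other in the CC2D1A mean. Pair C decides this result, since without it the dye effect was -0.15 (limma adjusted p = 0.0115).

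Spots that touch the CC2D1A spots on the slide did not share its ratio. Of the 8 probes in the 10 touching spots, 6 were tested, and their log2 ratios ran from -0.09 to -0.03. In limma's test of Low against High, in which 30 of 6733 probes (0.446%) passed, 28 lower (0.416%) and 2 higher (0.0297%) in Low goats, 0 of these 6 were called. The CSN1S1 spots are printed in another block of the slide.

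The paralog CC2D1B, which has the same domains and shares part of the endosomal role in mice, was measured in 12 of 12 readings. Its log2 ratio was 0.18 and -0.13 in pair A, 0.02 and -0.11 in pair B, and -0.04 and -0.03 in pair C. The pair means of 0.03, -0.04 and -0.03 lay on both sides of 0, with a mean of -0.02 ± 0.04 (SD, n = 3; limma adjusted p = 0.882). A ratio like that of CC2D1A was thus not seen for the related gene.

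Genes on either side of CC2D1A in goat assembly ARS1.2, whose gene table was used for gene order only, were read for a difference shared along the chromosome. CC2D1A and CSN1S1 are on different chromosomes in that table. The 3 nearest genes with a probe on one side, PRKACA, which encodes a catalytic subunit of protein kinase A and lies 11 genes away, the RNA helicase gene DDX39A, 15 genes away, and the adaptor gene GIPC1, 18 genes away, had log2 ratios of 0.04, -0.09 and -0.06. On the other side ZSWIM4, C7H19orf53 and MRI1, an enzyme gene of methionine salvage, lie 3, 4 and 5 genes away and had -0.08, 0.02 and 0.05. None of these 6 genes passed (limma adjusted p from 0.441 to 0.882). Since 0.446% of all probes were called, that count does not set the neighbours apart. The genes directly beside CC2D1A have no probe among those used.

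Likeness to CC2D1A was measured in 2 ways among the tested probes. The first was Pearson's r of the scaled level over the 6 goats, which fall into the 2 genotypes and share arrays in pairs. The highest values belonged to OSER1 at 0.995, WASHC2A at 0.967, the unnamed probe Bt00003869 at 0.952, HSD11B1, the enzyme that regenerates active glucocorticoid, at 0.936, and SSRP1, a subunit of the histone chaperone FACT, at 0.933. Their log2 ratios were -0.12, -0.55, -0.27, -0.34 and -0.07, all closer to 0 than that of CC2D1A under this processing. WASHC2A was lit in 0 of the 6 Low readings and in all 6 High readings, so its ratio is not an exact difference, and it ran from -1.57 to -0.42 over the settings run. OSER1, lit in 3 of the 6 Low readings and 4 of the 6 High readings, ran from -0.32 to -0.08. CSN1S1 was at r = 0.81, rank 29.

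The other measure was the distance between the 6 array ratios, which takes size into account. The nearest was LAPTM4A, at 1.41, with array ratios of -1.21 and -1.38 in pair A, -0.71 and -0.87 in pair B, and -1.03 and -1.53 in pair C. Bt00005040 followed at 2.33, RAB11FIP2 at 2.42, MTCH2, a mitochondrial outer membrane protein gene, at 2.50, and LRPPRC, a gene of mitochondrial RNA handling, at 2.51. CSN1S1 was farther off, at 2.67. Of the 5 probes from each measure 0 were shared.

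**Figure D4:**
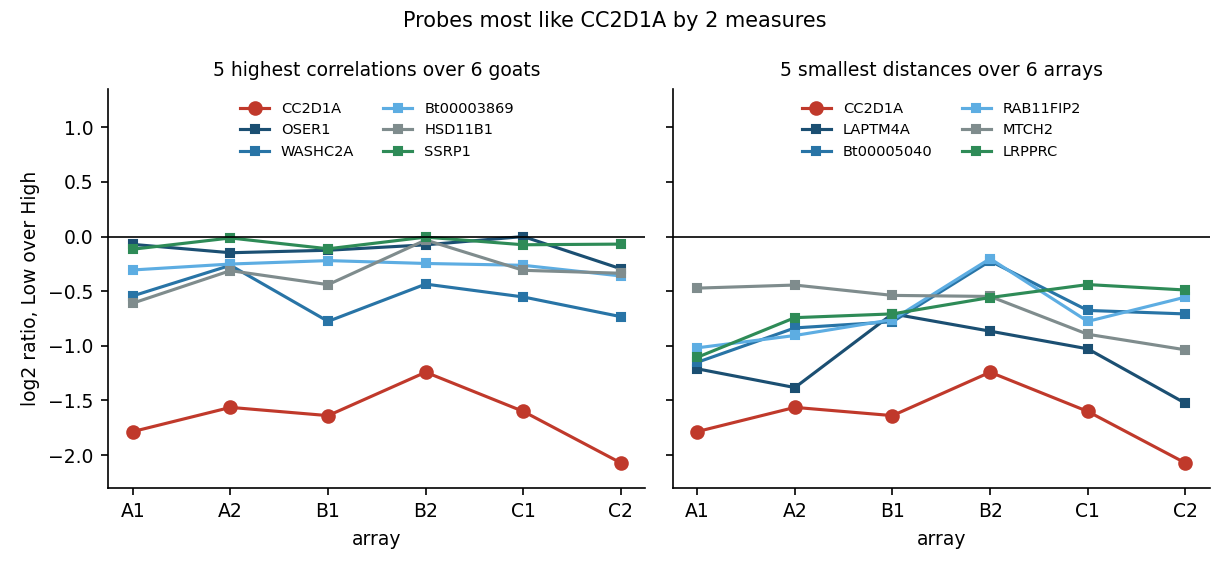
Log2 ratio of Low over High on the 6 arrays for CC2D1A and for the 5 probes most like it by correlation over goats (left) and by distance over array ratios (right). All lines lie at or below 0, and of the 10 probes LAPTM4A comes closest to the CC2D1A line.

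Members of pathways in which CC2D1A is known to act were examined in 6 lists, whether or not they act with CC2D1A itself. The lists hold 163 gene symbols in all, of which 66 had a probe and 54 were tested. In limma's test 0 of the 54 were lower and 0 higher in Low goats, and since 0.446% of all probes were called, a count of 0 does not set these genes apart. Of the 54, 7 had an unadjusted p under 0.05, against 758 of 6733 (11.3%) among all probes. The ratios were below 0 for 27 genes and above 0 for 27. The ratios of the 54 ran from -0.19 to 0.13. The other genes of the lists were not tested, among them HTR1A, TBK1, EGFR and PDPK1, the gene of PDK1.

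Among ESCRT and endosomal sorting genes, 14 of 32 were tested, with a median log2 ratio of 0.0035, close to the median of all probes, and 3 with an unadjusted p under 0.05. HGS, the ESCRT-0 subunit that gathers ubiquitinated cargo, was at -0.19 ± 0.18 (SD, n = 3; limma adjusted p = 0.321), and its pair values were -0.08 in A, -0.10 in B and -0.39 in C. IST1, a regulator of ESCRT-III, was at 0.12 (limma adjusted p = 0.415). The CHMP4 genes, whose products bind CC2D1A, were added after their values were seen: CHMP4A was at -0.05 and CHMP4C at -0.04.

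In the EGF receptor, PI3K, PDK1 and Akt list, 10 of 24 genes were tested, with a median of -0.011 and 1 unadjusted p under 0.05. RPTOR, the mTOR complex subunit raptor, was at 0.10 (limma adjusted p = 0.388), and SHC1, an adaptor of receptor tyrosine kinases, at 0.08. The kinase gene AKT2, also named after its value was seen, was at -0.04. In the NF-kB, TBK1 and RNA sensing list, 9 of 31 gene symbols were tested, with a median of -0.039 and 1 unadjusted p under 0.05. RELB, an NF-kB subunit, was at -0.09 (limma adjusted p = 0.440) and TLR3, the endosomal receptor for double-stranded RNA, at 0.08 (limma adjusted p = 0.468).

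In the cAMP, PDE4, PKA and CREB list, 11 of 28 genes were tested, with a median of 0.018 and 1 unadjusted p under 0.05. ADCY8 and ADCY2, which encode adenylyl cyclases, were at 0.13 (limma adjusted p = 0.388) and 0.09. PDE4D and CREB1, named after their values were seen, were at 0.01 and 0.02. Of the serotonin and dopamine genes 3 of 27 were tested, with a median of -0.023 and 0 unadjusted p under 0.05. TH, the rate-limiting enzyme of catecholamine synthesis, was at -0.05 and the serotonin receptor gene HTR4 at -0.02. DRD2 had a probe that was too dim to be tested.

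Of the Notch genes 7 of 21 were tested, with a median of -0.031 and 1 unadjusted p under 0.05. DLL4, a Notch ligand of endothelium, was at -0.10 (limma adjusted p = 0.382). It was the only 1 of the 54 pathway genes below 0 on all 6 arrays. Among all probes 125 of 6733 (1.86%) were, so this count does not set the pathway genes apart. HEY1, a target gene of Notch, was at -0.07.

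**Figure D5:**
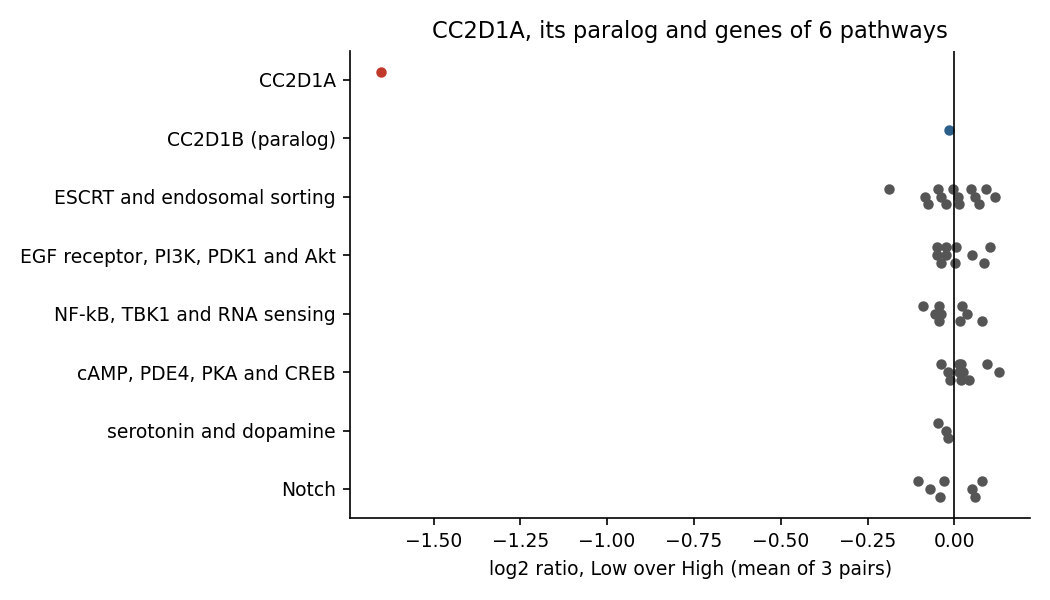
Mean log2 ratio of Low over High (mean of 3 pairs) for CC2D1A, its paralog CC2D1B and each tested gene of 6 pathway lists. CC2D1A is at -1.65, while the genes of the lists lie between -0.19 and 0.13.

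Markers of the cell types that a mammary sample can hold were read on the same arrays as CC2D1A. Of 42 marker genes 28 had a probe and 25 were tested. In limma's test 0 of the 25 were called, against 0.446% of all probes, and 7 of the 25 had an unadjusted p under 0.05, against 11.3% of all probes. The milk protein genes CSN1S2, CSN3, LALBA and PAEP and the luminal keratin genes KRT8, KRT18 and KRT19 were above background in all 12 readings. The 9 tested luminal and milk genes had a median log2 ratio of -0.028, with 5 below and 4 above 0.

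The marker with the smallest p in each list stayed short of the threshold. LALBA, the gene of alpha-lactalbumin, was at 0.55 ± 0.46 (SD, n = 3; limma adjusted p = 0.170), and its pair values were 0.68 in A, 0.94 in B and 0.04 in C. It passed without pair C, at 0.81 (limma adjusted p = 3e-05). Other genes of its list, named after their values were seen, were on the opposite side of 0: PAEP, the gene of beta-lactoglobulin, was at -0.44 ± 0.43 (limma adjusted p = 0.271) and KRT19 at -0.13 (limma adjusted p = 0.363). The leukocyte integrin gene ITGB2 was at -0.16, while CD68, also named after its value was seen, was at 0.12, and the 6 tested leukocyte genes had a median of -0.011, with 3 below and 3 above 0. Of the other lists, the myoepithelial keratin gene KRT17 was at -0.10, the endothelial cadherin gene CDH5 at -0.08 and the fibroblast gene DCN at 0.003. The 4 tested myoepithelial genes had a median of -0.039, with 3 below and 1 above 0. Of the 2 tested endothelial genes, 1 was below and 1 above 0. DCN was the only 1 of 6 fibroblast genes that was tested. The adipocyte hormone gene LEP was at -0.27, with -0.05 from its other probe, and it passed without pair B, at -0.45 (limma adjusted p = 0.023). The 3 tested adipocyte genes had a median of -0.068, with 2 below and 1 above 0. The part of cell make-up in the CC2D1A ratio was not tested.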

How the data were processed

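The deposited scanner files hold the signal and background intensity of each spot on a linear scale, read with ImaGene (version 6.0.1 per the file headers). A deposited series table gives each spot's log2 ratio, Low over High, with column medians from -0.014 to 0.0034. The authors' normalization of it is not given in the sources used. Its direction and scale were settled against the scanner files. With limma 3.58.1 in R 4.3.3, signal and background means were corrected by normexp (offset 50) and normalized by loess per array. Manual and poor spots, 24 to 61 per array, and control spots were left out, and averages were taken over the spots of a probe and then over both arrays of a pair. Of 8379 probes, the 6733 tested were 2 background SDs or more above background in 6 or more of the 12 readings, with values on all 6 arrays.

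Low against High was tested with limma on the 3 pair means, with Benjamini-Hochberg adjustment over the 6733 probes and a threshold of 0.05, and the dye effect in the same way. P-values rest on the spread between 3 pairs of goats and on a spread pooled over probes (7.47 degrees of freedom, against 2 of a probe's own). Both tests were also run on simulated data in which every probe had the same spread between pairs, unlike the measured probes. CC2D1A and the lists were chosen with earlier results of these data known. The text names CC2D1A, CC2D1B and CSN1S1, the 2 genes of smallest p in each pathway list and 1 in each marker list, the 3 nearest genes with a probe on each side, the 5 most like probes by each of 2 measures, and the probes ranked beside CC2D1A, with exceptions stated. For a gene with several probes the brightest was used. Gene symbols come from the platform annotation. The sequence of the bovine probe was not used here, so its specificity in goat RNA was not tested.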

Additional observations from a re-analysis of the deposited data

How the results depend on the processing

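The CC2D1A log2 ratio kept its direction in all settings run and moved beyond its spread over pairs in 5 of them: -2.15 with an offset of 10, -1.89 with no background subtracted, -3.34 with plain subtraction, -1.39 with medians and -1.89 in the authors' deposited values. Leaving out 1 pair gave -1.76 to -1.56. The CSN1S1 ratio minus the CC2D1A ratio was -0.58 with an offset of 10 and turned to 0.60 with plain subtraction, and it was -1.15 to -0.89 without 1 pair. Low readings above background numbered 0 of 6 at 3 background SDs and 3 of 6 at 1. The bound on the mean fold over pairs was 2.77 at 2 background SDs and 2.53 at 3. The dye effect was -0.15 to 0.063 without 1 pair and passed its test only without pair C. Its sign changed with the treatment of background. It was -0.13 with no background subtracted, -0.12 in the deposited values, 0.055 with an offset of 10 and 0.17 with plain subtraction. CC2D1A is above background in fewer than 12 readings, so a filter that asked for all 12 gave no dye effect. The 30 probes called became 19 with an offset of 10 or with medians, 1 with plain subtraction, 18 in the deposited values, and 24 to 67 without 1 pair. The split of 28 lower and 2 higher became 45 and 22 without pair A. By distance, 0 of the 5 probes most like CC2D1A by correlation remained. The means over arrays of 1 dye orientation were added after seeing the data. Signal near background in the Low goats limits the size of the difference.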
